A study of Mus musculus with 6 samples.

Results

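Transcripts of 9 genes listed for the surface epithelium of the ovary, not all of them particular to it, were followed through RNA sequencing of cultured fetal mouse ovaries. The genes were the keratins Krt7, Krt8, Krt18 and Krt19, the uroplakins Upk1b and Upk3b, mesothelin (Msln), its binding partner Muc16 and the transcription factor Lhx9. They were found by name in the deposited count table, where each of the 9 matched 1 of 21898 rows. All ovaries were of wild-type genotype (strain not given), were dissected at 14.5 days post coitum (dpc) and were kept for 3 days in DMEM/F12 without serum. The NAPQI group (3 libraries) received 15 µM N-acetyl-p-benzoquinone imine, the reactive metabolite of acetaminophen, for these 3 days. The control group (3 libraries) received an equal volume of the solvent ethyl acetate. The labels do not say how many ovaries made up a library, or whether libraries came from separate litters or cultures. A p-value here therefore sets a difference against library-to-library spread, which can be technical.

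The ovarian surface epithelium is a modified mesothelium that covers the gonad and derives from the coelomic epithelium of the gonadal ridge. Simple epithelia of this kind build their intermediate filaments from pairs of a type I keratin (here Krt18 and Krt19) and a type II keratin (here Krt7 and Krt8), which are stable only as heteropolymers. Uroplakins are membrane proteins best known from the plaques of the bladder lining. Mesothelin is a cell surface protein of mesothelia that binds Muc16, a very large membrane mucin whose human counterpart carries the CA125 epitope. Lhx9, a LIM homeodomain factor, is required in mice for the gonads to form.

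Libraries held 13879347 to 17258609 counts, and 14736 genes, all 9 among them, had enough counts to be tested. Germ cell and pregranulosa markers were well detected in all libraries (Ddx4 at 150.6 to 193.8 CPM, Foxl2 at 297.4 to 404.9 CPM; counts per 1000000 counted reads, scaled between libraries by TMM). Control replicate 3 was shallowest and stood farthest out on the first principal component, and control replicates 1 and 2 lay at opposite ends of the second, at -20.96 and 25.91, with 22.94% of the variance. The 9 genes together took 0.0686% of counts in control replicate 2, 0.026% in control replicate 1 and 0.0325% to 0.0532% in the other 4 libraries. In bulk tissue a smaller number of cells that express these genes and less RNA per such cell cannot be told apart. Keratins are also made by duct epithelium, so these shares are not a measure of surface cells alone.

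None of the 9 genes passed the test between ovaries cultured with NAPQI and with solvent, and for all 9 the libraries of the groups overlapped. Their levels instead varied from library to library, together. Control replicate 2 had the highest level of all 9 genes, and control replicate 1 had the lowest level of 7. Across the 6 libraries the levels spanned 1.62-fold for Lhx9, 2.05-fold to 3.82-fold for the keratins, 5.89-fold and 7.85-fold for the uroplakins and 11-fold for Msln.

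**Figure D1:**
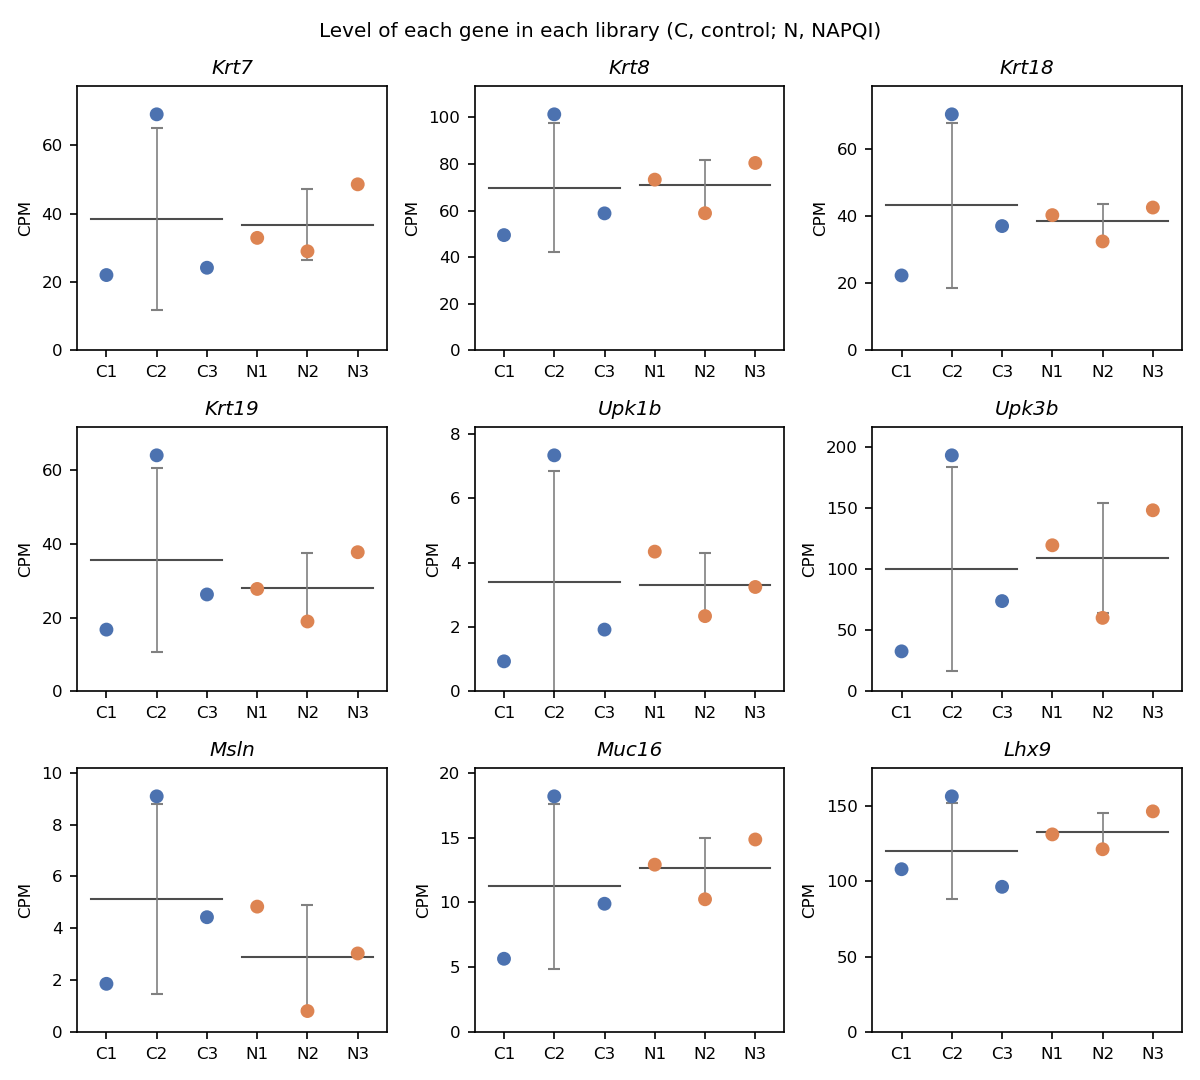
Level of each of the 9 genes (CPM, linear axes from 0) in the 3 control libraries (C1 to C3, blue) and the 3 NAPQI libraries (N1 to N3, orange), with the mean of each group as a line and its SD as a bar. C2 is the highest library in all 9 panels, and the groups overlap in each.

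Krt8 and Krt18 form the first keratin pair of simple epithelia. In the coordinates of the count table (build GRCm39), Krt8 (ENSMUSG00000049382) spans chromosome 15 from 101905133 to 101912917 on the minus strand and Krt18 (ENSMUSG00000023043) spans 101936615 to 101940462 on the plus strand. Their starts face away from each other across 23697 bp, with 0 other listed genes between them. Krt8 stood at 49.5, 101 and 58.8 CPM in control replicates 1, 2 and 3, and at 73.3, 58.9 and 80.5 CPM in NAPQI replicates 1, 2 and 3. The NAPQI values lay inside the control range. Krt18 stood at 22.3, 70.3 and 37.0 CPM in the controls and at 40.3, 32.4 and 42.5 CPM with NAPQI, again all inside the control range. The log2 fold change (NAPQI minus control) was 0.02 ± 0.21 (SE) for Krt8, with an edgeR adjusted p of 0.986, and -0.17 ± 0.29 for Krt18, with an edgeR adjusted p of 0.88. An older annotation lists a processed pseudogene of Krt8, so reads of Krt8 could be split with it.

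Krt7 (ENSMUSG00000023039, chromosome 15, 101308924 to 101328194, plus strand) is a type II keratin of simple and ductal epithelia. It stood at 22.0, 69.0 and 24.2 CPM in the controls and at 32.9, 29.0 and 48.5 CPM with NAPQI. Every NAPQI library lay above control replicates 1 and 3 and below control replicate 2. Krt19 (ENSMUSG00000020911, chromosome 11, 100031636 to 100039491, minus strand) is a small type I keratin that lacks the tail domain of the others. It stood at 16.8, 64.1 and 26.3 CPM in the controls and at 27.8, 19.0 and 37.8 CPM with NAPQI. NAPQI replicate 2 lay between control replicates 1 and 3, and the other NAPQI libraries above both. The log2 fold change was -0.07 ± 0.35 for Krt7 (edgeR adjusted p = 0.966) and -0.35 ± 0.38 for Krt19 (edgeR adjusted p = 0.795).

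The promoters of Krt7, Krt8 and Krt18 are shown to set side by side keratin genes of both types from 1 chromosome. Muc16 had the library order of Krt7 and Krt8, and Upk3b that of Krt18, so the order is not particular to the keratins. The sequences were taken from RefSeq (build GRCm38.p6, which is not the build of the counts; 250 bases before to 50 after the start), where 6 of the 9 genes matched. Capitals mark CAGGTG, the E-box bound by the ZEB and SNAIL repressors of epithelial genes, and the TATA box TATAAA, each on either strand.
Krt7 (chr15:101412153-101412452, plus strand): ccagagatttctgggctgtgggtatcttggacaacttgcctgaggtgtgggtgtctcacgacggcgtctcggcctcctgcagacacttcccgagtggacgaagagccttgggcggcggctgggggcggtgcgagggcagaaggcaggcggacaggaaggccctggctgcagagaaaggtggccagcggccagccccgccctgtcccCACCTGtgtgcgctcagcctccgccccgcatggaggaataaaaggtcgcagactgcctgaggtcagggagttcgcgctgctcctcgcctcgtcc
Krt8 (chr15:102004293-102004592, minus strand): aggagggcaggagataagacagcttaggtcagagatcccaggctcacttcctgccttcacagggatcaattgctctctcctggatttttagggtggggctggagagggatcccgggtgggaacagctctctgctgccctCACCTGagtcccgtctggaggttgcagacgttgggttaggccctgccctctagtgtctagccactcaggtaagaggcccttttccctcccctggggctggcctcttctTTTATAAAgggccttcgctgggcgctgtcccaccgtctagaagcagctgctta
Krt18 (chr15:102027966-102028265, plus strand): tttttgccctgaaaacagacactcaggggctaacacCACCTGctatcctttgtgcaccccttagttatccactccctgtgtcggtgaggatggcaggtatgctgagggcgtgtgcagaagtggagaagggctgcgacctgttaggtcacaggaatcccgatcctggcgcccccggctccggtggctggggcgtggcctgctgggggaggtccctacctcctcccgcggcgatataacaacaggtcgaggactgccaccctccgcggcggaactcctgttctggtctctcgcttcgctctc
The E-box letters occurred once in each of these 3 promoters and in 0 of the other 3 matched, those of Upk3b, Muc16 and Lhx9. They occurred in 20% of 27025 promoters of this length. TATAAA occurred in the promoter of Krt8 alone among the 6, against 14.2% of all, and in Krt8 it matched on both strands in overlapping positions. The GC box GGGCGG matched 4 times in Krt7 and in no other of the 6 (35.9% of all), and GGAATG, the site of TEAD factors, in Upk3b alone (14.6% of all). The AP-1 site TGANTCA and the LIM homeodomain site TAATTA matched in 0 of the 6, against 7.93% and 5.31% of all. The motifs were chosen after the sequences and the levels had been read, and a match describes letters, not binding.

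Upk3b is a uroplakin of mesothelia as well as of the bladder lining, and was the most variable of the abundant genes. Upk3b (ENSMUSG00000042985) lies on chromosome 5 from 136067350 to 136075341 on the plus strand. It stood at 32.8, 194 and 74.0 CPM in the controls and at 120, 60.3 and 148 CPM with NAPQI. Controls held both the lowest and the highest value. Upk1b (ENSMUSG00000049436, chromosome 16, 38593546 to 38620690, minus strand) encodes a tetraspanin of the uroplakin complex. It stood at 0.935, 7.34 and 1.92 CPM in the controls and at 4.34, 2.34 and 3.25 CPM with NAPQI. These rest on 16 to 126 reads a library, and the exact Poisson 95% intervals, which cover counting error only, were 9.15 to 26 reads in control replicate 1 and 105 to 150 in control replicate 2. All 3 NAPQI libraries lay above control replicates 1 and 3. The log2 fold change was 0.13 ± 0.46 for Upk3b (edgeR adjusted p = 0.955) and -0.05 ± 0.57 for Upk1b (edgeR adjusted p = 0.987).

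Msln (ENSMUSG00000063011, chromosome 17, 25967587 to 25973352, minus strand) departed most from the rest. It stood at 1.87, 9.09 and 4.43 CPM in the controls and at 4.84, 0.822 and 3.04 CPM with NAPQI. NAPQI replicate 2, lowest for Msln, held 13 reads (exact Poisson 95% interval 6.92 to 22.2) against 32 to 156 in the other libraries. Muc16 (ENSMUSG00000109564, chromosome 9, 18406751 to 18585826, minus strand) stood at 5.67, 18.2 and 9.90 CPM in the controls and at 12.9, 10.2 and 14.8 CPM with NAPQI. Unlike Msln, Muc16 in NAPQI replicate 2 lay above control replicates 1 and 3. Farthest from 0 among the 9 was Msln, with -0.82 ± 0.57 as its log2 fold change (edgeR adjusted p = 0.665). For Muc16 it was 0.17 ± 0.32 (edgeR adjusted p = 0.898).

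Lhx9 (ENSMUSG00000019230, chromosome 1, 138752924 to 138776315, minus strand) was the steadiest of the 9. It stood at 108, 156 and 96.4 CPM in the controls and at 131, 121 and 146 CPM with NAPQI. The NAPQI libraries again lay above control replicates 1 and 3 and below control replicate 2. Its log2 fold change was 0.14 ± 0.15 (edgeR adjusted p = 0.791).

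Of the 9 genes 0 were called at an adjusted p under 0.05 by edgeR's quasi-likelihood test, against 0.0814% of all tested genes (12 of 14736, 11 higher and 1 lower). An unadjusted p under 0.05 was seen for 0 of the 9, against 9.24% of all. DESeq2, limma-voom and edgeR's exact test also called 0 of the 9. Groups that did not overlap were seen for 0 of the 9, against 14.4% of all. The log2 fold change was positive for 4 and negative for 5, with a median of -0.05 beside -0.01 over all tested genes. In the authors' deposited table the adjusted p was 1 for each of the 9, and the log2 fold changes ran from -0.82 for Msln to 0.18 for Muc16. The spread within the control group was wide: for 8 of the 9 genes the SD of log2 CPM over the controls was above that of 92% of tested genes, with Lhx9 at 83%. The NAPQI group was tighter for each of them except Msln, as with Krt18, whose SD of log2 CPM was 0.83 in controls and 0.21 with NAPQI.

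The direction of the comparison moved with single libraries of both groups. Without control replicate 2 the log2 fold change was positive for 8 of the 9 genes, with a median of 0.40 beside -0.002 over all genes. Upk1b was then at 1.24 ± 0.45 (edgeR adjusted p = 0.226), Upk3b at 1.05 ± 0.33 (0.174), Muc16 at 0.72 ± 0.25 (0.215) and Krt7 at 0.68 ± 0.19 (0.142). Still 0 of the 9 were called, against 0.388% of all genes. Of the 9, 6 had an unadjusted p under 0.05 and a positive change, against 7.29% of all genes. For 5 (Krt7, Krt8, Upk1b, Muc16 and Lhx9) all NAPQI libraries lay above both controls left, for Krt8 only by 58.9 against 58.8 CPM, and this held for 15.7% of all genes. Without control replicate 1 the sign turned: 8 of the 9 were negative, with a median of -0.34. Krt18 at -0.48 ± 0.22 (edgeR adjusted p = 0.404) and Msln at -1.22 ± 0.52 (0.375) then had an unadjusted p under 0.05, against 6.49% of all genes lower at that p. Without control replicate 3 the median was -0.27, and 7 of the 9 were negative. Leaving out a NAPQI library moved it less: without NAPQI replicate 3 the median was -0.15 with 7 negative, without NAPQI replicate 2 it was 0.14 with 6 positive, and without NAPQI replicate 1 it was 0.0035 with 5 positive. Control replicate 2 was singled out after these values were seen, so the fits without it describe that library and are no test of NAPQI.

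**Figure D2:**
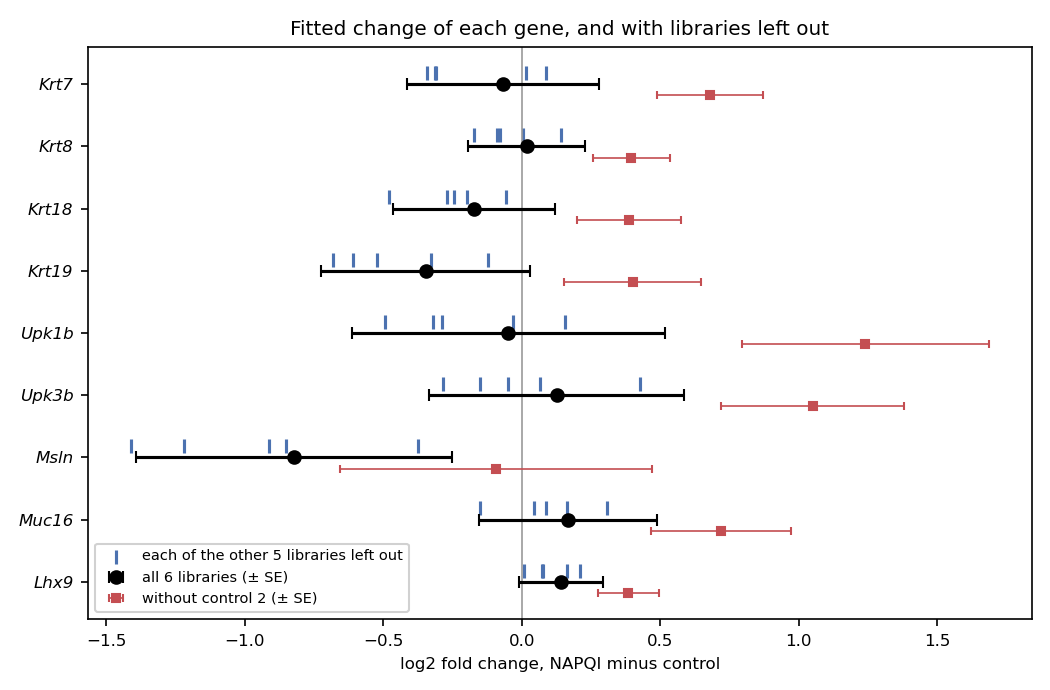
Log2 fold change, NAPQI minus control, of each gene with all 6 libraries (black, ± SE), without control replicate 2 (red, ± SE) and with each of the other 5 libraries left out (blue ticks). The red squares lie to the right of the black circles for all 9 genes, for Upk1b at 1.24 against -0.05.

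The libraries fell in nearly the same order for most of the genes. For Krt7, Krt8 and Muc16 the order from high to low was control 2, NAPQI 3, NAPQI 1, NAPQI 2, control 3 and control 1. For Krt18, Krt19 and Upk3b it was the same with NAPQI 2 and control 3 exchanged. NAPQI replicate 3 was second for 7 of the 9, and control replicate 1 and NAPQI replicate 2 were among the lowest 3 libraries for all 9. As a description, the median Pearson correlation of log2 CPM over the 6 libraries was 0.89 for the 36 pairs of genes, from 0.37 (Msln with Lhx9) to 0.98 (Upk3b with Muc16). It was 0.84 without control replicate 2, and 0.78 over the 4 libraries left without control replicates 1 and 2. The points share library, depth and scaling. Against the mean of the other 5 libraries, control replicate 2 was higher by 0.39 (Lhx9) to 1.79 (Msln) on the log2 CPM scale. Of the 9 genes, 6 were among the 1% of tested genes highest in control replicate 2 by this measure (Krt7, Krt18, Krt19, Upk1b, Upk3b and Msln). In control replicate 1, 3 were among the lowest 1%.

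Other genes listed for surface epithelium and mesothelium were split. Of 22 listed, 18 were tested, and 10 of these 18 (55.6%) were highest in control replicate 2, against 15.6% of all tested genes. For 7 of the 18, control replicate 1 was also lowest, against 4.88% of all. Gpm6a, a membrane glycoprotein, stood at 7.01, 33.0 and 14.9 CPM in the controls and 24.9, 12.6 and 20.4 CPM with NAPQI. As with the uroplakins, control replicate 2 was on top and control replicate 1 at the bottom. Bnc1, a zinc finger factor of mesothelium, stood at 29.1, 80.5 and 31.9 CPM in the controls and 41.8, 39.1 and 54.8 CPM with NAPQI. The tight junction gene Cldn15 stood at 7.01, 29.0 and 13.4 CPM in the controls and 20.8, 12.5 and 18.9 CPM with NAPQI. Gpm6a, Bnc1 and Cldn15 were picked after their values were seen. Wt1, a zinc finger factor of the coelomic epithelium that other gonadal cells also express, moved little, from 534 to 573 CPM over all 6 libraries. Between the groups 0 of the 18 were called (3 had an unadjusted p under 0.05, against 9.24% of all tested genes), 11 were negative, and the median log2 fold change was -0.05. Smallest in unadjusted p were Aldh1a2, a retinoic acid synthesis enzyme, at 0.45 ± 0.12 (edgeR adjusted p = 0.304), and Igfbp5, which encodes an IGF binding protein, at 0.28 ± 0.11 (edgeR adjusted p = 0.455). For both all NAPQI libraries lay above all controls.

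**Figure D3:**
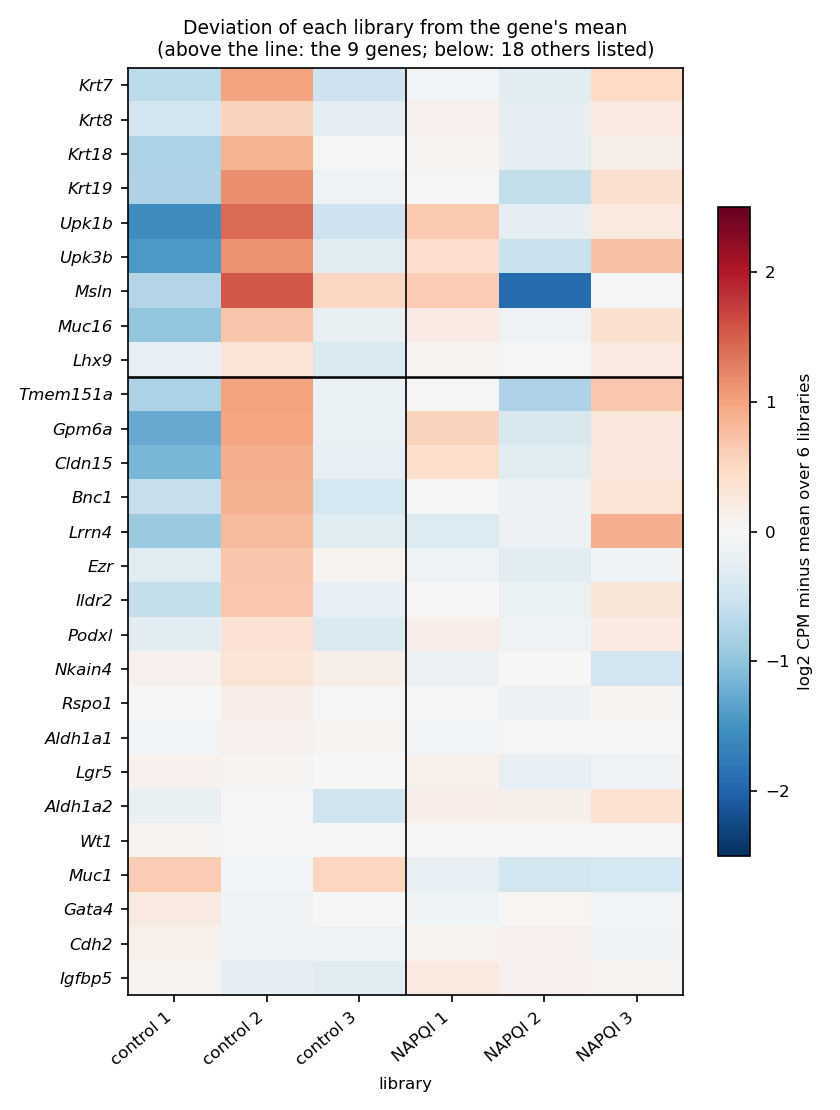
Log2 CPM of each library minus the gene's mean over the 6 libraries, for the 9 genes (above the line) and the 18 tested other genes listed for surface epithelium and mesothelium (below, ordered by their excess in control replicate 2). The column of control 2 is red for all 9 genes and for the upper genes of the list, from Tmem151a to Podxl, and near white for Wt1.

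Per length, the order of levels over the 6 libraries was Krt8, Upk3b, Krt18, Krt19, Lhx9, Krt7, Upk1b, Msln and Muc16. The deposited FPKM (counts per kilobase and 1000000 counted reads) averaged 35.9 ± 9.66 for Krt8 (SD, n = 6), 29.7 ± 17.1 for Upk3b, 28.4 ± 11.2 for Krt18 and 17.2 ± 9.34 for Krt19. Lhx9 averaged 13.3 ± 2.48, Krt7 5.34 ± 2.56, Upk1b 1.60 ± 1.08, Msln 1.31 ± 0.942 and Muc16 0.454 ± 0.166 FPKM. The top of the order was not separated beyond the spread. Krt8 lay above Upk3b in 4 of 6 libraries and Upk3b above Krt18 in 3 of 6, while Krt18 lay above Krt19, and Lhx9 above Krt7, in 6 of 6. Krt19 lay above Lhx9 and Upk1b above Msln in 4 of 6. The length given for Krt7, 7049 nt, is 1.72 times and that for Lhx9, 9494 nt, 1.92 times the longest coding transcript in an older annotation. With that transcript's length the means were 9.19 FPKM for Krt7 and 25.7 for Lhx9, which placed Lhx9 above Krt19 at 20.2, and Msln at 1.85 came above Upk1b at 1.77.

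Ratios within a library do not depend on scaling between libraries. The FPKM ratio of Krt8 to Krt18 was 1.63, 1.06 and 1.17 in the controls and 1.34, 1.33 and 1.39 with NAPQI. The NAPQI libraries were tight and lay inside the control range, with control replicate 2, richest in both keratins, the nearest to parity. Krt7 to Krt8 was 0.124, 0.189 and 0.114 in the controls and 0.125, 0.137 and 0.168 with NAPQI, and Krt19 to Krt18 was 0.582, 0.706 and 0.55 against 0.535, 0.453 and 0.688. Both were highest in control replicate 2, with NAPQI replicate 3 next. Upk3b to Upk1b was 15.2 to 27.1 over all libraries. Muc16 to Msln was 0.353, 0.233 and 0.26 in the controls and 0.31, 1.45 and 0.568 with NAPQI, so NAPQI replicate 2 stood apart. Over the 5 ratios the two-sided exact permutation p of the log2 ratio was 0.2 (Muc16 to Msln) to 0.9, where 3 libraries against 3 cannot give less than 0.1.

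**Figure D4:**
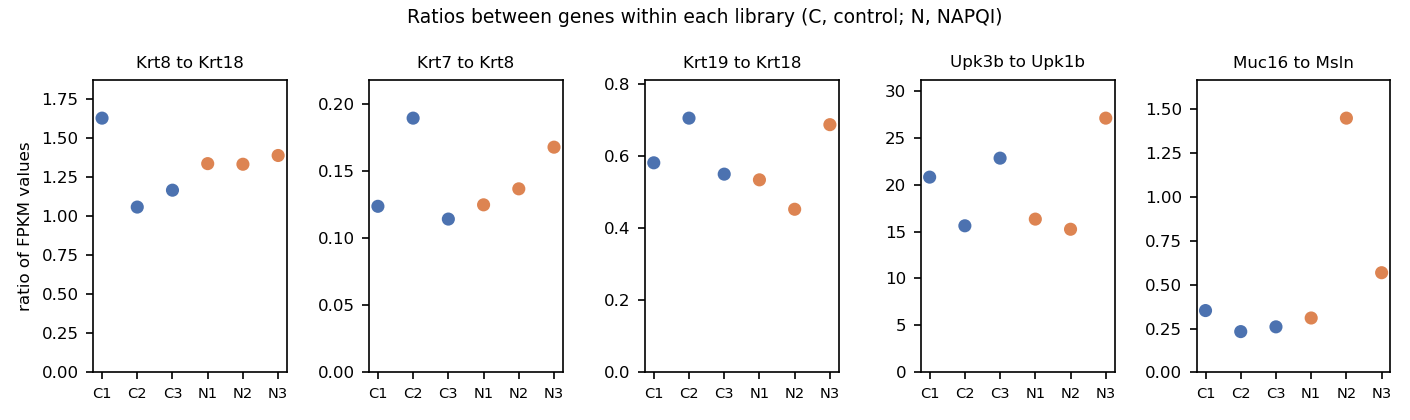
Ratio of FPKM values between pairs of genes within each library (linear axes from 0; C1 to C3 control, blue; N1 to N3 NAPQI, orange). Krt8 to Krt18 stays between 1.06 and 1.63, while Muc16 to Msln reaches 1.45 in N2.

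Of 18 other keratins listed, 7 were tested, 0 were called or had an unadjusted p under 0.05, 4 were negative and the median log2 fold change was -0.13. By the deposited FPKM the highest of them reached the level of Krt7, which averaged 5.34 FPKM. Krt20, an intestinal and urothelial keratin, stood at 4.21 to 6.05 FPKM and Krt10, of the epidermis, at 2.77 to 3.90 FPKM. With the length of its longest coding transcript Krt7 averaged 9.19 FPKM, above both ranges. The lengths of Krt20 and Krt10 were not changed in this way. Neither Krt20 nor Krt10 was highest in control replicate 2. Both were named after their values were seen. The basal keratin gene Krt5 had 6 reads over all libraries, and Krt13 and Krt16 had 0. Krt14 had 93 reads and was not tested. Its level was highest in control replicate 2, at 2.45 CPM, and lowest in control replicate 1, at 0.234 CPM. Krt15, with 62 reads and also not tested, was highest in NAPQI replicate 3, at 1.17 CPM against 1.11 CPM in control replicate 2. Krt14 and Krt15 were named after their values were seen. Krt17, a keratin of stressed and basal epithelia, was highest in control replicate 2, at 2.74 CPM against 0.234 to 0.967 CPM elsewhere, and its log2 fold change was -1.16 ± 0.77 (edgeR adjusted p = 0.649). Krt1, of the epidermis, was at -0.74 ± 0.34 (edgeR adjusted p = 0.542). Of 4 other uroplakins 1 was tested: Upk1a, a tetraspanin like Upk1b, at 2.07 to 3.70 FPKM, with -0.43 ± 0.29 as its log2 fold change (edgeR adjusted p = 0.649). Its lowest library lay above the mean of Upk1b, and it was highest in control replicate 3. Upk2, which urothelium expresses with Upk3a, had 0 reads and Upk3a had 7 in all.

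Of 34 genes of epithelial junctions, polarity and keratin linkage, 31 were tested and 0 called. An unadjusted p under 0.05 was seen for 3, against 9.24% of all tested genes. Of the 31, 18 were negative, the median was -0.06, and 6 (19.4%) were highest in control replicate 2. Dsc2, a desmosomal cadherin, was at 0.37 ± 0.13 (edgeR adjusted p = 0.418) and Pkp4, a plakophilin relative, at 0.26 ± 0.09 (edgeR adjusted p = 0.422), both without overlap of the groups. Of 13 other cytoplasmic intermediate filament and nuclear lamin genes 0 were called, 2 had an unadjusted p under 0.05 and 9 were negative, with a median of -0.05. Control replicate 2 was highest for 5 of the 13 (38.5%), and control replicate 1 was also lowest for 3 of these. Prph, which encodes the neuronal filament protein peripherin (named after its values were seen), stood at 1.17, 5.94 and 2.44 CPM in the controls and 2.36, 2.15 and 3.73 CPM with NAPQI. Lmna, which encodes the A-type lamins, averaged 79.0 ± 16.9 CPM over the controls and 50.5 ± 1.03 CPM over the NAPQI libraries (SD, n = 3; log2 fold change -0.64 ± 0.13, edgeR adjusted p = 0.173). It passed by DESeq2 (adjusted p = 0.00365), with edgeR's exact test (0.00381), with no low-count filter (0.022) and without control replicate 2 (0.0296). Vim, the mesenchymal filament gene, was at -0.35 ± 0.10 (edgeR adjusted p = 0.331). For Lmna and Vim, named for the smallest unadjusted p of their list, all NAPQI libraries lay below all controls. None of the 4 keratins showed this pattern, but groups without overlap were seen for only 14.4% of all tested genes. Of 8 mucins and partners 4 were tested and 0 called (1 at an unadjusted p under 0.05), with a median of 0.08. Muc1, an epithelial membrane mucin, was at -0.76 ± 0.33 (edgeR adjusted p = 0.517) and Emcn, an endothelial sialomucin, at 0.30 ± 0.20 (edgeR adjusted p = 0.645).

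Of 17 other transcription factors of the gonadal ridge, where Lhx9 acts, 16 were tested and 0 called, with 12 negative and a median of -0.06. An unadjusted p under 0.05 was seen for 6 of the 16, against 9.24% of all tested genes. Osr1, a zinc finger factor of intermediate mesoderm, was at -0.82 ± 0.21 (edgeR adjusted p = 0.278, and adjusted p = 0.0374 with edgeR's exact test). Gata6, a GATA factor of gonadal somatic cells, was at -0.29 ± 0.09 (edgeR adjusted p = 0.398). Both were named for the smallest unadjusted p of their list, and both had all NAPQI libraries below all controls. Lhx9 overlapped, as did most tested genes (14.4% of all did not). Of these 16 factors 4 were highest in control replicate 2, and for 0 was control replicate 1 also lowest.

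Markers of other cell types gave the following values beside the 9 genes, and their part in the result was not tested. Keratins are also made by mesonephric and duct epithelium, whose defining factors were near 0: Pax2 was at most 0.818 CPM and Lhx1 at most 0.414 CPM in any library. Of 14 listed genes of that kind 12 were tested, 0 called, 1 had an unadjusted p under 0.05 and 1 was highest in control replicate 2, namely Gata3 (named after its values were seen), at 4.15, 15.7 and 7.39 CPM in the controls and 7.32, 4.74 and 8.15 CPM with NAPQI. Pax8, a factor of the mesonephric duct, stood at 5.5 to 10.8 CPM and was not highest in control replicate 2. The median log2 fold change of the list was -0.19, and its summed level was 571 to 710 CPM in controls and 531 to 630 CPM with NAPQI. Most of that sum came from Amhr2 (277 to 454.2 CPM) and Emx2 (135.7 to 167.5 CPM). Amhr2 is also listed for pregranulosa cells and Emx2 for the gonadal ridge, so the sum is no measure of duct epithelium alone. Sall1 was at 0.73 ± 0.25 (edgeR adjusted p = 0.409, and 0.0239 without control replicate 2) and Amhr2 at -0.26 ± 0.15 (edgeR adjusted p = 0.593). The summed level of the 12 pregranulosa markers ran opposite at its ends, with 2929 CPM in control replicate 1, 2280 in control replicate 2, 2532 in control replicate 3 and 2293 to 2597 with NAPQI. Of the 11 tested, 0 were called, 1 had an unadjusted p under 0.05 and 0 were highest in control replicate 2. The median was -0.02, with Wnt4 at 0.24 ± 0.09 (edgeR adjusted p = 0.422) and Irx5 at -0.17 ± 0.10 (edgeR adjusted p = 0.621). Endothelial markers were lowest in control replicate 2, at a summed 189 CPM against 214 to 285 CPM elsewhere.

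Germ cell, endothelial, stromal, macrophage and erythroid lists held 0 genes called by edgeR's quasi-likelihood test. An unadjusted p under 0.05 was seen for 1, 1, 5, 3 and 0 of the 10, 12, 12, 12 and 6 tested, against 9.24% of all tested genes. Over all the lists named here DESeq2 called Lmna and Myh11, edgeR's exact test these and Osr1, and limma-voom 0. Of the 12 germ cell genes, 10 tested, the median was 0.03 and the sum 1889 to 2056 CPM in controls and 1832 to 2230 CPM with NAPQI. The 12 endothelial genes had a median of -0.04 and a sum of 214 to 264 CPM with NAPQI. The 12 stromal genes had a median of -0.27 and a sum of 3898 to 4367 CPM in controls and 2904 to 4074 CPM with NAPQI. Myh11, smooth muscle myosin, was at 0.79 ± 0.16 (edgeR adjusted p = 0.173, and adjusted p = 0.00146 by DESeq2) and Col3a1 at -0.37 ± 0.12 (edgeR adjusted p = 0.403). The 12 macrophage genes had a median of -0.26 and a sum of 145 to 187 CPM in controls and 116 to 150 CPM with NAPQI. Of 10 erythroid genes 6 were tested, with a median of -0.98, and the sum was 31.3 to 207 CPM in controls, highest in control replicate 3, and 22.5 to 74.3 CPM with NAPQI; Hba-a2 had 0 reads. Other genes that the rule named from these lists, where Emcn, given above with the mucins, was passed over for endothelium, were Rec8 at -0.51, Sycp3 at 0.20, Sox18 at 0.70, Sox17 at -0.61, C1qc at -0.57, Cd68 at -0.51, Hbb-bs at -1.20 and Hba-a1 at -1.11 on the log2 fold change scale.

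Genes whose pattern over the 6 libraries was most like the mean z-score of the 9 were Hmgcs1, a cholesterol synthesis enzyme (Pearson correlation 0.994), Fah, the last enzyme of tyrosine breakdown (0.988), and Mycn, a MYC family factor (0.988), among 10641 genes with a mean of at least 10 CPM. Mycn stood at 18.5, 40.2 and 21.4 CPM in the controls and 26.6, 21.0 and 31.7 CPM with NAPQI, in the library order of Krt18 and Krt19. Most unlike were Ttyh3, an anion channel gene (-0.995), Nomo1, of the endoplasmic reticulum (-0.995), and Plec, which encodes plectin, a linker of intermediate filaments (-0.993). Plec stood at 272, 183 and 238 CPM in the controls and 214, 238 and 212 CPM with NAPQI, lowest where the keratins were highest. Of the 10641 genes, 163 had a correlation above 0.9. The named genes were picked as the extremes over only 6 libraries, so their values are given as a description.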

How the data were processed

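The libraries, 3 per group, were made from total RNA with the NEBNext Ultra II kit per the labels' protocols. The authors deposited read counts per gene, whole numbers without normalization per the file headers. They also deposited FPKM values, which counts over the given length and counted reads gave again within 0.00149%. Per the submitters' processing notes, FastQC 0.11.8, HISAT2 2.0.5, HTSeq 0.9.1 and the build GRCm39 were used; their settings, strand use included, are not stated. A further deposited table holds the authors' comparison: signal columns of mean normalised counts, a fold ratio, its log2 value and p-values, with file and column names that point to DESeq. None of the 9 genes overlaps another listed gene. Emptied lines of the tables were not analysed here.

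Counts were fitted in R 4.3.3 with edgeR 4.0.16: filterByExpr (minimum count 10), TMM scaling, the two-sided quasi-likelihood F-test over all tested genes and Benjamini-Hochberg adjustment at 0.05. Log2 CPM used a prior count of 2, and lists were described by counts and medians. Genes named from lists were the 2 tested genes with the smallest unadjusted p in each, passing over the 9 and any gene already named from an earlier list (Amhr2 for pregranulosa cells and Emcn for endothelium, for example). The genes most like or unlike the 9 were the 3 with the highest and lowest correlation with their mean z-score. Alternatives were other scalings and filters, DESeq2 1.42.0, limma-voom (limma 3.58.1), edgeR's exact test, the replicate number as a block, removal of each library's trend on gene length (lowess, span 0.3) and each library left out; the transcript length used for FPKM was added after the data were seen. The fit was tested on simulated data in which all genes had the same dispersion. Each of the 9 genes but Lhx9 was fitted here with a larger dispersion than the simulated one. That test therefore does not cover genes as variable between libraries as the keratins, uroplakins, Msln and Muc16. The 9 genes and the lists were chosen with earlier results of these data known. Figures used Python 3.11.15 and matplotlib 3.10.9.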

Additional observations from a re-analysis of the deposited data

How the results depend on the processing

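Of the 9 genes 0 were called in all 16 alternatives, and with each library left out the lowest adjusted p was 0.142. The count over all genes was 12; it was 48 with no low-count filter, 115 with edgeR's exact test, 75 with DESeq2, 1 by limma-voom and 1 with the replicate block, and it ran from 1 to 58 with a library left out (58 with control 2 left out, 25 with NAPQI 2, 18 with control 1, and 1 each with control 3, NAPQI 1 and NAPQI 3). The same-numbered libraries had correlations of deviations from the group means of 0.061, -0.178 and -0.051, so the numbers gave no sign of paired samples. The median log2 fold change of the 9 genes was -0.05, and -0.34 to 0.40 with a library left out. It was positive with all libraries kept by limma-voom (0.078), with the replicate block (0.107) and with the length trend removed (0.025). The sign turned for Krt7 (0.078 by limma-voom, 0.11 with the replicate block), Upk1b (0.41 and 0.35, and 0.025 with the length trend removed), Mycn (0.035, 0.051 and 0.013 in these 3, and 0.010 by library size alone) and Nomo1 (0.0015 by upper quartile, 0.017 by library size alone); the cause was not tested. With a library left out Krt7 ran from -0.34 to 0.68, Krt8 from -0.17 to 0.40, Krt18 from -0.48 to 0.39, Krt19 from -0.68 to 0.40, Upk1b from -0.50 to 1.24, Upk3b from -0.29 to 1.05, Muc16 from -0.15 to 0.72, Msln from -1.41 to -0.09 and Lhx9 from 0.0081 to 0.38. Among other named genes that turned, Krt17 ran from -1.80 to 0.33, Hbb-bs from -1.85 to 0.42, Hba-a1 from -1.59 to 0.39, Hmgcs1 from -0.05 to 0.19, Fah from -0.15 to 0.37, Mycn from -0.22 to 0.42, Ttyh3 from -0.18 to 0.073, Nomo1 from -0.039 to 0.024 and Plec from -0.20 to 0.079. Low counts limit Upk1b (322 reads in all) and Msln among the 9. Other named genes rested on fewer reads than Upk1b, such as Krt17 (85), Muc1 (241), Prph (281) and Krt1 (294).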
